A study of Mus musculus with 11 samples.

Results

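Macrophage and neutrophil marker genes were followed in mouse thymus, in MYC-driven thymic lymphomas with and without the DNA methyltransferase Dnmt3b, and in thymocytes taken before tumors formed. The set holds 37 genes, of 19938 genes with a probe set that names a single gene: 21 macrophage and monocyte genes, 14 neutrophil genes, and the acute phase and complement genes Hp and Cfb. Each gene was matched by its symbol to 1 probe set, and all 37 were found. RNA came from 11 thymi of FVB mice, hybridised to 1 Affymetrix array each, and every value below is a log2 expression level or a difference of log2 levels. All 4 groups carried EμSR-tTA, an activator made in blood cells, and the Rosa26LOXPEGFP reporter, which is switched on where Cre has cut. Normal thymocytes (n = 3) also carried Teto-Cre, with Dnmt3b+/+ and no MYC transgene, and were taken at 24 days. Wild-type lymphomas (n = 3) carried Teto-MYC and Dnmt3bF/F without Cre, so that Dnmt3b was not deleted. Dnmt3b-deficient lymphomas (n = 3) carried Teto-MYC and Teto-Cre and are labelled Dnmt3b-/-. Pre-tumor thymocytes (n = 2) had the genotype of the Dnmt3b-deficient lymphomas and were taken at 24 days. Lymphomas were taken once disease was apparent and were not sorted, whereas the pre-tumor thymi were sorted for EGFP+ cells. The sources do not make clear whether the normal thymi were sorted. Sorting therefore cannot be told apart from stage, nor the Cre transgene from the Dnmt3b genotype among the lymphomas.

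Macrophages are phagocytes that clear dying cells, which thymic macrophages do continually as thymocytes fail selection. Neutrophils carry bactericidal proteins in granules that are filled one after the other during their maturation in bone marrow, so that primary granule proteins such as Mpo are made at an earlier stage than secondary granule proteins such as Ltf and Lcn2. C/EBP family factors and PU.1 are known to drive many of these genes. Neither cell type belongs to the thymocyte lineage. In bulk RNA, fewer cells of a type cannot be told apart from less RNA per cell.

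The sequences just before the start sites of 5 of the most variable markers are given here because these genes moved over a wide range between lymphomas: the neighbouring lysozyme genes Lyz1 and Lyz2, and the neutrophil genes Ngp, Lcn2 and S100a8. Each is the 250 bases upstream of the gene's start, 5′ to 3′ on the gene's strand, from RefSeq on build GRCm38.p6. Capitals mark matches, on either strand, to TTNNGNAA, a simple form of the C/EBP motif. Lyz1 lies at chr10:117292869-117293118 and Lyz2 at chr10:117282273-117282522, both on the minus strand. Ngp lies at chr9:110419558-110419807 on the plus strand, Lcn2 at chr2:32387740-32387989 on the minus strand, and S100a8 at chr3:90668821-90669070 on the plus strand.
Lyz1: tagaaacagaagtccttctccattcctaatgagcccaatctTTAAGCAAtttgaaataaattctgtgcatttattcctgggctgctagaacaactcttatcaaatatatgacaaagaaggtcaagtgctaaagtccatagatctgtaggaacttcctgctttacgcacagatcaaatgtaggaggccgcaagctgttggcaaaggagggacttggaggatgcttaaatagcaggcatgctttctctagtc
Lyz2: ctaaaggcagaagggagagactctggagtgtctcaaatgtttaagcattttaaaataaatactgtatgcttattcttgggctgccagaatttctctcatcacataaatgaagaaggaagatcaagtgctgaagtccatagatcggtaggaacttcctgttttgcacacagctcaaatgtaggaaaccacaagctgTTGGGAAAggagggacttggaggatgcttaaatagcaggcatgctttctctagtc
Ngp: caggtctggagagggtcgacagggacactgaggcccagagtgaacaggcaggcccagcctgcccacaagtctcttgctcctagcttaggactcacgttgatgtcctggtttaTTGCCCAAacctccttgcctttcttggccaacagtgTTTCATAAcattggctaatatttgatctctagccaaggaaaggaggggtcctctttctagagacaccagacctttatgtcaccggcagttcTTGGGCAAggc
Lcn2: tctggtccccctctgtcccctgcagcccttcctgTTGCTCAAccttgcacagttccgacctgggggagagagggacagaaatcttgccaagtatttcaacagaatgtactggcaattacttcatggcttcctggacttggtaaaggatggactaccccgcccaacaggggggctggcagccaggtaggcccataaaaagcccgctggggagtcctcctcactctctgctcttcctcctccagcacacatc
S100a8: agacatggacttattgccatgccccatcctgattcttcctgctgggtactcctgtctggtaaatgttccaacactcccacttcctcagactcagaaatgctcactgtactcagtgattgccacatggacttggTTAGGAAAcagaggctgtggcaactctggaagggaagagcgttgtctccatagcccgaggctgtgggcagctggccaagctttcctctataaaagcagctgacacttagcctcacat

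The lysozyme windows were identical at 92 of the last 100 bases and at 152 of all 250, compared without gaps. Whether the probes of one lysozyme gene also detect the other was not tested. RefSeq promoters, which here run from 250 bases before the start to 50 after it, were matched for 28 of the 37 genes. Only the 250 bases before the start were searched for motifs. TTNNGNAA occurred in the promoters of 18 of these 28 genes, in 20 of their 30 promoters (66.7%), beside 36.8% of all 32851 promoters. GAGGAA, a simple form of the PU.1 motif, was also searched on both strands. It occurred for 17 of the 28 genes, in 18 of their 30 promoters (60%), beside 23.3% of all promoters. The motifs may overlap each other, and a match is a description of the letters only. Several genes of the set lie beside each other with no protein-coding gene between them: Lyz1 and Lyz2, S100a8 and S100a9, Prtn3 and Elane, Fcgr3 and Fcgr4, and the cluster of C1qa, C1qb and C1qc.

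Replicates of a group correlated between 0.973 and 0.991 over all probe sets (Pearson's r, across probe sets). The T cell receptor chain Cd3e had levels of at least 8.70 on every array. The Dnmt3b probe set did not separate the genotypes: levels were 5.36, 5.59 and 5.70 for the wild-type and 5.26, 5.49 and 5.40 for the Dnmt3b-deficient tumors (difference -0.17, adjusted p = 0.899). No source states whether its probes lie in the deleted part, so this level does not check the labels. The table has a floor at 3.32, which is log2 of 10, below which no level can be read. Of the 37 markers, 3 were at the floor on all 11 arrays (the macrophage receptor Cd163, the membrane protein Ms4a7 and the Fc receptor Fcgr4), and 27 were never at the floor.

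**Figure D1:**
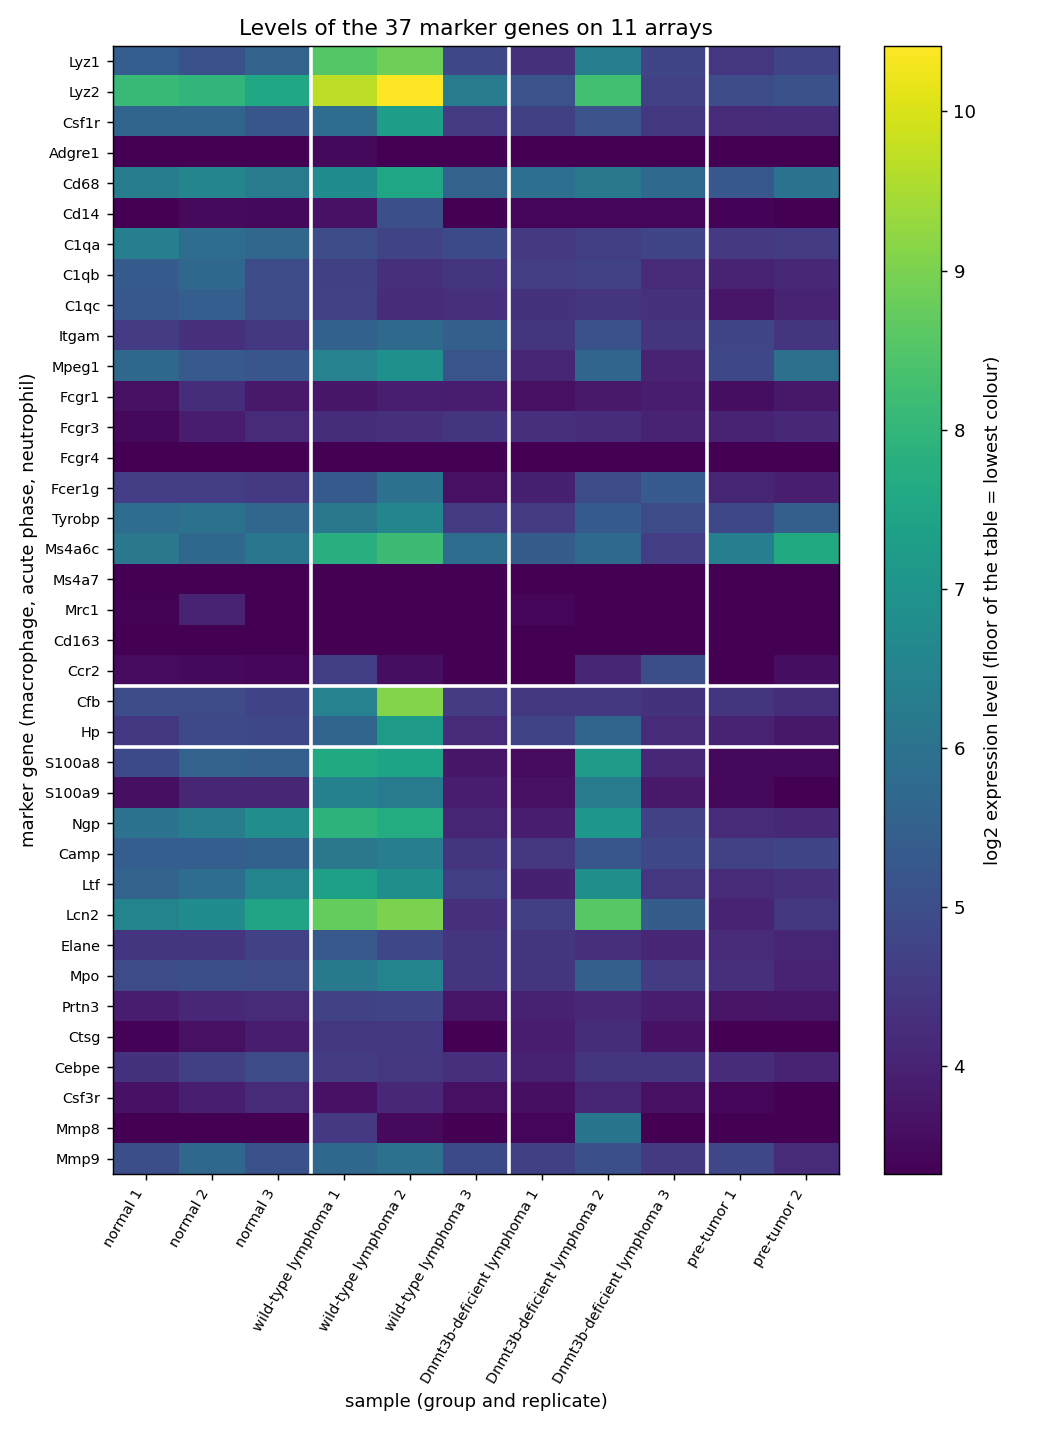
Log2 level (colour, lowest colour at the floor of 3.32) of each of the 37 marker genes (vertical axis) on each of the 11 arrays (horizontal axis, by group and replicate). Wild-type lymphomas 1 and 2 and Dnmt3b-deficient lymphoma 2 carry the highest levels of most neutrophil genes, and the pre-tumor samples carry low levels.

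The lysozyme genes encode an enzyme of macrophages and neutrophils that cuts bacterial cell walls, and Lyz2 had the widest range of the 37 markers over the lymphomas. Lyz2 had levels of 8.09, 7.99 and 7.55 for the normal samples, 9.71, 10.41 and 6.23 for the wild-type tumors, 5.15, 8.28 and 4.73 for the Dnmt3b-deficient tumors, and 4.94 and 5.08 for the pre-tumor samples. Wild-type lymphoma 3 lay below all normal samples, Dnmt3b-deficient lymphoma 2 lay above them, and the lymphoma groups overlapped. Between the highest and the lowest lymphoma Lyz2 differed by 5.68, or 51.3-fold, a range wider than that of 99.98% of the probe sets tested. Lyz1 had levels of 5.45, 5.12 and 5.58 for the normal samples, 8.54, 8.85 and 4.84 for the wild-type tumors, 4.33, 6.36 and 4.80 for the Dnmt3b-deficient tumors, and 4.45 and 4.76 for the pre-tumor samples. Wild-type lymphomas 1 and 2 and Dnmt3b-deficient lymphoma 2 were again high, and the other lymphomas lay below every normal sample. Its range over the lymphomas was 23.0-fold.

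Among the macrophage surface genes, Adgre1 and Mrc1 read at or near the floor on nearly all arrays, those of normal thymus included. Low RNA cannot be told apart there from a probe set that responds weakly. Adgre1, which encodes the F4/80 antigen of mature macrophages, lay between 3.32 and 3.49 on all 11 arrays. The mannose receptor Mrc1 left the floor by more than 0.1 only in normal sample 2, at 4.03. The colony stimulating factor receptor Csf1r, on which macrophages depend for survival, had levels of 5.59, 5.64 and 5.21 for the normal samples, 5.86, 7.29 and 4.58 for the wild-type tumors, 4.65, 5.14 and 4.47 for the Dnmt3b-deficient tumors, and 4.18 and 4.22 for the pre-tumor samples. Wild-type lymphoma 2 stood highest, all 3 Dnmt3b-deficient lymphomas lay below the normal samples, and the lymphoma groups overlapped. The lysosomal glycoprotein Cd68 ran the same way over a narrower span, from 5.58 to 7.48 in wild-type and from 5.74 to 6.17 in Dnmt3b-deficient lymphomas. The endotoxin co-receptor Cd14 reached 5.06 in wild-type lymphoma 2 and at most 3.66 on the other 10 arrays.

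Ms4a6c, a tetraspan membrane protein of monocytes, had levels of 6.13, 5.69 and 6.09 for the normal samples, 7.76, 8.18 and 5.84 for the wild-type tumors, 5.42, 5.75 and 4.61 for the Dnmt3b-deficient tumors, and 6.38 and 7.64 for the pre-tumor samples. It was the only marker of the 37 whose pre-tumor samples both lay above every normal sample, and its Dnmt3b-deficient lymphomas all lay below its wild-type lymphomas. Mpeg1, a pore-forming protein of phagocytes, ranged from 5.18 to 6.87 in wild-type and from 4.02 to 5.62 in Dnmt3b-deficient lymphomas, beside 5.21 to 5.69 in normal thymocytes. The chemokine receptor Ccr2, which brings monocytes out of bone marrow, followed another order, with its highest level, 5.03, in Dnmt3b-deficient lymphoma 3.

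The genes of complement C1q, the recognition protein of the classical pathway and a product of tissue macrophages, behaved unlike the lysozymes. They were lower than normal in every other group and varied less between lymphomas than the lysozymes did. C1qa had levels of 6.38, 5.85 and 5.66 for the normal samples, 4.997, 4.78 and 4.90 for the wild-type tumors, 4.49, 4.64 and 4.80 for the Dnmt3b-deficient tumors, and 4.51 and 4.57 for the pre-tumor samples. C1qb had levels of 5.39, 5.70 and 4.98 for the normal samples, 4.65, 4.30 and 4.38 for the wild-type tumors, 4.62, 4.73 and 4.16 for the Dnmt3b-deficient tumors, and 4.03 and 4.10 for the pre-tumor samples. C1qc had levels of 5.25, 5.43 and 4.98 for the normal samples, 4.72, 4.21 and 4.31 for the wild-type tumors, 4.37, 4.38 and 4.33 for the Dnmt3b-deficient tumors, and 3.72 and 4.03 for the pre-tumor samples. For each of the 3 genes, every normal sample lay above every sample of the other groups. The range over the 6 lymphomas was 0.51 for C1qa, 0.57 for C1qb and 0.51 for C1qc, beside a median of 0.41 for all probe sets.

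C1q differences were tested with limma in a fit of all 4 groups, with p-values adjusted over all 28939 probe sets and a threshold of 0.05. In wild-type lymphomas C1qa fell 2.10-fold (difference -1.07, SE 0.18, adjusted p = 0.00590), C1qb by 0.91 (adjusted p = 0.0229) and C1qc by 0.80 (adjusted p = 0.0132). In Dnmt3b-deficient lymphomas C1qa differed by -1.32 (SE 0.18, adjusted p = 0.00231), C1qb by -0.85 (adjusted p = 0.0285) and C1qc by -0.86 (adjusted p = 0.00902). The pre-tumor samples were lower than normal by 1.42 for C1qa (SE 0.20, adjusted p = 0.00423), by 1.29 for C1qb (adjusted p = 0.0107) and by 1.34 for C1qc (adjusted p = 0.00390). These 3 comparisons share the normal samples. The call of C1qb was the least stable: for wild-type lymphomas it was lost without normal sample 1 (adjusted p = 0.0653), normal sample 2 (0.0680), wild-type lymphoma 2 (0.0752) or wild-type lymphoma 3 (0.0627), and for Dnmt3b-deficient lymphomas without normal sample 1 (0.0800), normal sample 2 (0.0848), Dnmt3b-deficient lymphoma 1 (0.0561) or Dnmt3b-deficient lymphoma 3 (0.0748). Without pre-tumor sample 2 its adjusted p was 0.0708 in that comparison. With only the 2 groups compared in the fit, C1qb (adjusted p = 0.0624) and C1qc (0.0606) were not called for wild-type lymphomas, nor C1qb (0.111) for Dnmt3b-deficient ones. Between lymphoma genotypes the difference was -0.25 for C1qa (95% interval -0.67 to 0.17), 0.06 for C1qb (-0.44 to 0.56) and -0.06 for C1qc (-0.44 to 0.32).

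Markers of stroma and further macrophage genes were read beside C1q. Of 16 stroma and endothelium markers, against normal 4 fell in wild-type and 2 in Dnmt3b-deficient tumors and 2 in pre-tumor samples, beside 10.3%, 10.5% and 9.88% of all probe sets, and none rose. The counts of 2 are near that background. Krt5, a keratin of thymic epithelium, fell by 0.60, 0.49 and 0.81 in these groups, and the collagen gene Col3a1 by 0.21, 0.19 and 0.23. Of 30 further macrophage genes, 1, 2 and 2 fell, a smaller share than of all probe sets, and their median difference was 0.02, 0 and -0.13. Those that fell were Axl, a receptor for the uptake of dying cells, by 0.61, 0.65 and 1.03, and Apoe, a lipid carrier, by 0.81 in Dnmt3b-deficient tumors and 1.15 in pre-tumor samples. Of 12 thymocyte markers, 11, 10 and 7 fell, with median differences of -1.81, -1.77 and -1.22. The part of these genes in the C1q result was not tested.

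**Figure D2:**
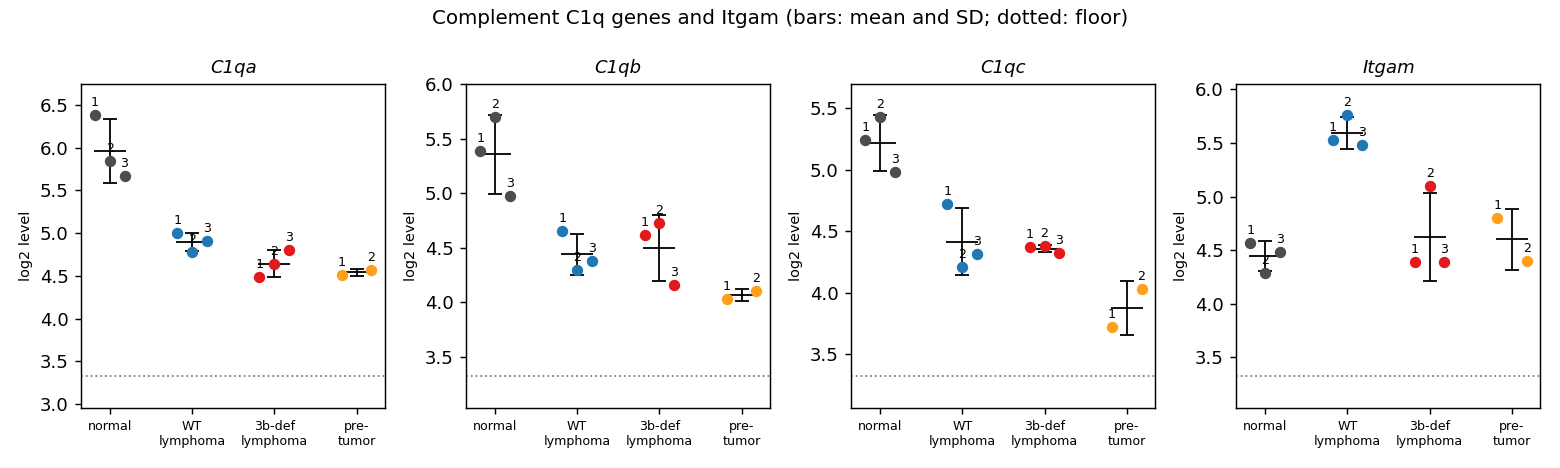
Log2 levels (vertical axes) of C1qa, C1qb, C1qc and Itgam in the 4 groups (points are samples, bars the mean and SD, the dotted line the floor). Normal samples lie above all others for the C1q genes, and the 3 wild-type lymphomas lie above all others for Itgam.

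Itgam, the CD11b integrin chain of monocytes, macrophages and neutrophils, was, with all samples in the fit, the only marker called higher in a lymphoma group. Its levels were 4.56, 4.29 and 4.48 for the normal samples, 5.53, 5.76 and 5.48 for the wild-type tumors, 4.39, 5.10 and 4.39 for the Dnmt3b-deficient tumors, and 4.80 and 4.40 for the pre-tumor samples. All 3 wild-type lymphomas, including number 3, which was low in lysozymes, lay above the other 8 samples. Itgam rose 2.21-fold in wild-type lymphomas over normal thymocytes (difference 1.15, SE 0.21, adjusted p = 0.00904). Against wild-type lymphomas, Dnmt3b-deficient lymphomas differed by -0.96 (95% interval -1.46 to -0.47), which did not pass the test over all probe sets (adjusted p = 0.434).

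Fc receptors bind antibody on phagocytes, and Fcer1g and Tyrobp are the chains through which they and related receptors signal. The receptors themselves varied little: Fcgr1 lay between 3.57 and 4.24 and Fcgr3 between 3.49 and 4.40 on all arrays. Fcer1g had levels of 5.34, 5.98 and 3.65 for the wild-type and 3.93, 4.95 and 5.35 for the Dnmt3b-deficient tumors, beside 4.54 to 4.61 in normal thymocytes. Tyrobp had levels of 6.17, 6.56 and 4.57 for the wild-type and 4.57, 5.37 and 4.95 for the Dnmt3b-deficient tumors, beside 5.66 to 5.95 in normal thymocytes. Wild-type lymphoma 3 was the lowest of its genotype in both signal chains, and the genotypes overlapped.

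Cfb, complement factor B of the alternative pathway, had levels of 4.996, 4.98 and 4.74 for the normal samples, 6.46, 9.09 and 4.56 for the wild-type tumors, 4.47, 4.48 and 4.35 for the Dnmt3b-deficient tumors, and 4.41 and 4.26 for the pre-tumor samples. Wild-type lymphoma 2 alone reached a level above 7, the Dnmt3b-deficient lymphomas lay close together, and every one of them lay below every wild-type lymphoma and every normal sample. The range over the lymphomas was 26.7-fold. Haptoglobin, Hp, which binds free hemoglobin, was also highest in wild-type lymphoma 2, at 7.20, and lay between 4.16 and 5.63 in the other 5 lymphomas.

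Neutrophil genes gave the clearest order of samples. S100a8, which encodes a subunit of the calcium-binding protein calprotectin, had levels of 4.91, 5.57 and 5.49 for the normal samples, 7.62, 7.43 and 3.76 for the wild-type tumors, 3.54, 7.16 and 4.15 for the Dnmt3b-deficient tumors, and 3.48 and 3.47 for the pre-tumor samples. Wild-type lymphomas 1 and 2 and Dnmt3b-deficient lymphoma 2 lay above the normal samples, and all the other lymphomas and the pre-tumor samples lay below them. Its partner subunit S100a9 showed the same 3 lymphomas high, at 6.43, 6.25 and 6.21, and the other 3 between 3.63 and 3.90.

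Secondary and tertiary granule genes followed. Lcn2, an iron-scavenging lipocalin, had levels of 6.51, 6.76 and 7.46 for the normal samples, 8.75, 9.01 and 4.31 for the wild-type tumors, 4.64, 8.56 and 5.42 for the Dnmt3b-deficient tumors, and 4.01 and 4.46 for the pre-tumor samples. Ngp, a neutrophil granule protein, had levels of 6.03, 6.29 and 6.81 for the normal samples, 7.92, 7.69 and 4.05 for the wild-type tumors, 3.86, 7.04 and 4.73 for the Dnmt3b-deficient tumors, and 4.20 and 4.14 for the pre-tumor samples. In both genes, each lymphoma lay clear of the normal samples on one side or the other. Lactoferrin, Ltf, which binds iron, had levels of 5.58, 5.86 and 6.52 for the normal samples, 7.34, 6.85 and 4.62 for the wild-type tumors, 3.95, 6.86 and 4.45 for the Dnmt3b-deficient tumors, and 4.20 and 4.31 for the pre-tumor samples. The lymphoma ranges were 26.0-fold for Lcn2, 16.7-fold for Ngp, 17.0-fold for S100a8 and 10.5-fold for Ltf. Camp, the cathelicidin antimicrobial peptide, had a narrower range, from 4.42 to 6.35. The collagenase Mmp8 reached 6.08 in Dnmt3b-deficient lymphoma 2 and 4.49 in wild-type lymphoma 1, and at most 3.50 elsewhere. The gelatinase Mmp9 ranged over the lymphomas from 4.52 to 5.998.

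**Figure D3:**
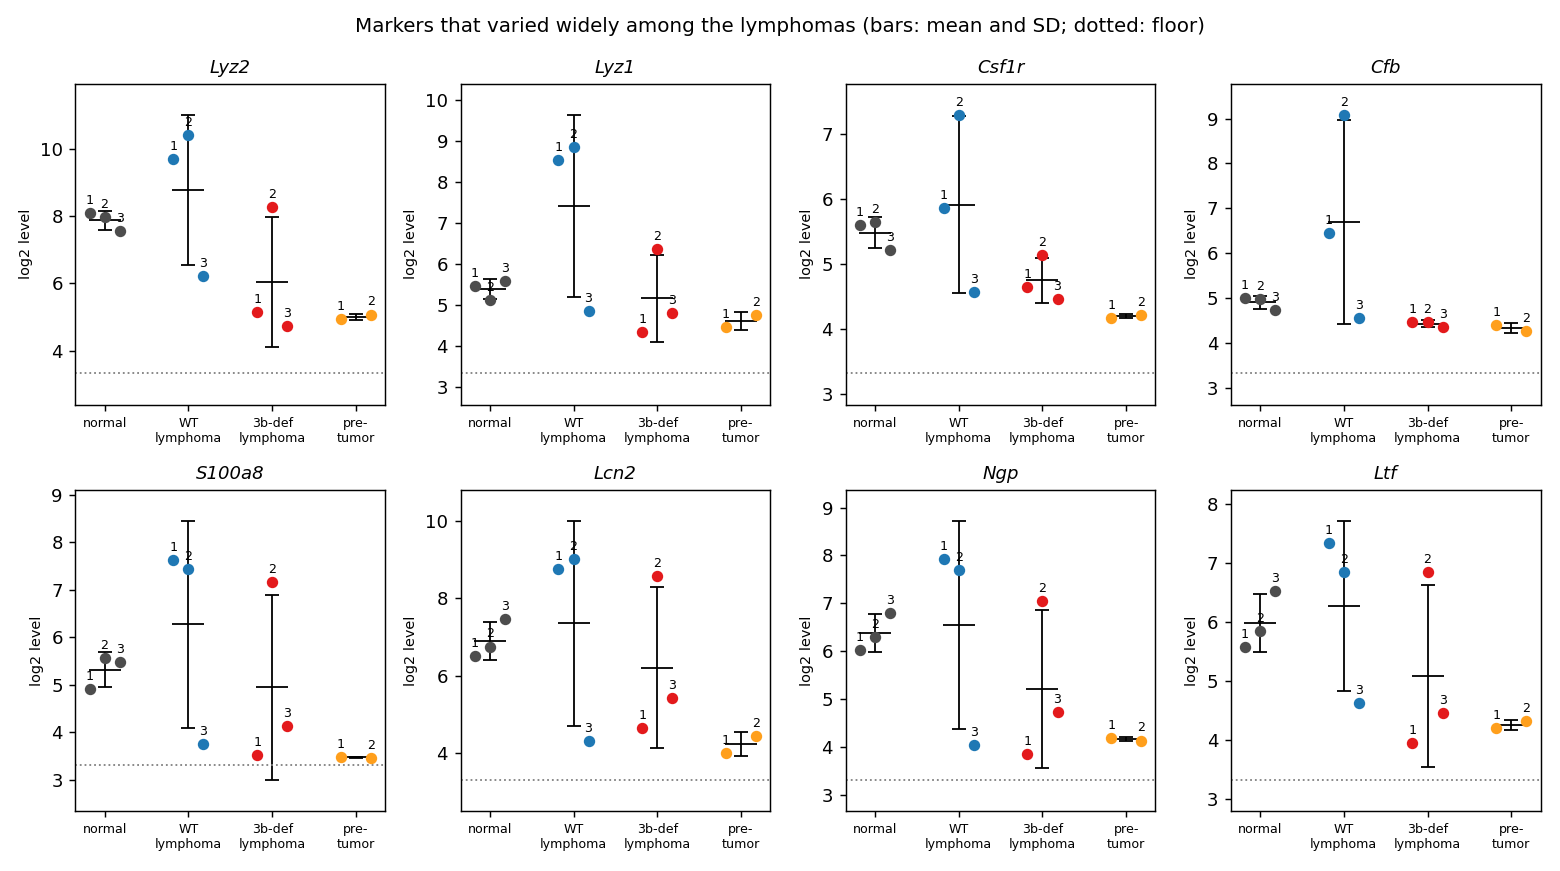
Log2 levels (vertical axes) of Lyz2, Lyz1, Csf1r, Cfb, S100a8, Lcn2, Ngp and Ltf in the 4 groups (points are samples, bars the mean and SD, the dotted line the floor). The wild-type lymphomas lie far apart, by up to 4.70 for Lcn2. Among the Dnmt3b-deficient lymphomas the spread differs by gene, and the samples lie close together for Cfb.

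Primary granule genes ranged less widely over the lymphomas than Lcn2, Ngp and Ltf. Camp and Mmp9 ranged less widely than the primary granule gene Mpo, so the granule classes did not separate by range. Mpo, the peroxidase that makes hypochlorous acid, had levels of 4.94, 5.04 and 4.96 for the normal samples, 6.19, 6.53 and 4.38 for the wild-type tumors, 4.42, 5.48 and 4.58 for the Dnmt3b-deficient tumors, and 4.29 and 3.998 for the pre-tumor samples. Among the serine proteases of these granules, neutrophil elastase, Elane, had levels of 5.31, 4.87 and 4.40 for the wild-type and 4.38, 4.29 and 4.08 for the Dnmt3b-deficient tumors. Every wild-type lymphoma lay above every Dnmt3b-deficient one for Elane. Proteinase 3, Prtn3, and cathepsin G, Ctsg, stayed below 5 on all arrays. Cebpe, a factor needed for secondary granules, and Csf3r, the receptor for granulocyte colony stimulating factor, ranged by only 0.59 and 0.49 over the lymphomas.

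The spread among the lymphomas was wide for many markers. Of the 37 markers, 15 (40.5%) ranged by at least 2 on the log2 scale, a 4-fold span, over the 6 lymphomas, beside 2.11% of all probe sets tested. The neutrophil genes made up 7 of their 14 and the macrophage and monocyte genes 6 of their 21. The median range was 2.04 for neutrophil genes, 1.37 for macrophage and monocyte genes and 0.41 for all probe sets. Within groups, the median SD of the neutrophil genes was 0.26 for normal, 0.86 for wild-type lymphoma, 0.48 for Dnmt3b-deficient lymphoma and 0.08 for pre-tumor samples, beside 0.12, 0.11, 0.13 and 0.08 for all probe sets.

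The order of the lymphomas recurred across markers, counted over the 34 above the floor in at least 1 lymphoma. Wild-type lymphoma 3 was the lowest of its genotype for 28 of the 34, with all 14 neutrophil genes among them. Dnmt3b-deficient lymphoma 2 was the highest of its genotype for 25 of the 34, with 12 of the 14 neutrophil genes. It lay above wild-type lymphoma 3 for 26 of the 34 markers. Wild-type lymphoma 2 was the highest of all 6 for 11 of 18 macrophage and monocyte genes and 6 of 14 neutrophil genes, and wild-type lymphoma 1 for 3 and 7. The markers share their arrays, so these counts are a description of 6 tumors.

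Averaged over the 14 neutrophil genes, the log2 level was 5.95, 5.87 and 4.07 for the wild-type and 4.03, 5.63 and 4.25 for the Dnmt3b-deficient tumors, beside 4.65 to 5.08 in normal and 3.89 to 3.96 in pre-tumor samples. For the 21 macrophage and monocyte genes the means were 5.22, 5.44 and 4.34 for the wild-type and 4.16, 4.70 and 4.25 for the Dnmt3b-deficient tumors, beside 4.65 to 4.79 in normal and 4.14 to 4.36 in pre-tumor samples. Dnmt3b-deficient lymphoma 2 was thus near wild-type lymphomas 1 and 2 in the neutrophil mean, and within the normal range in the macrophage mean.

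**Figure D4:**
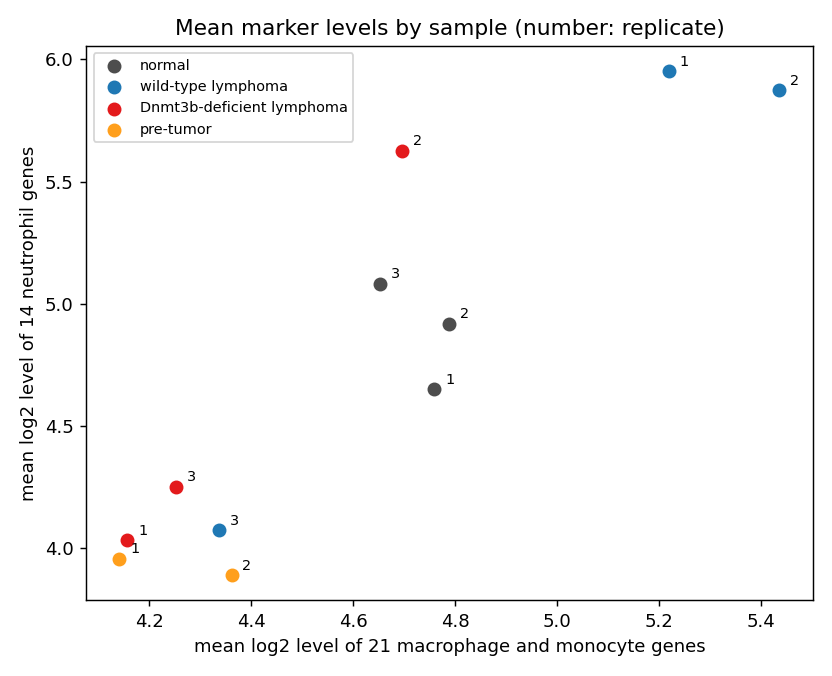
Mean log2 level of the 21 macrophage and monocyte genes (horizontal axis) and of the 14 neutrophil genes (vertical axis), with 1 point per sample, coloured by group and numbered by replicate. Wild-type lymphomas 1 and 2 (neutrophil means 5.95 and 5.87) and Dnmt3b-deficient lymphoma 2 (5.63) lie above the normal samples on the vertical axis, and the other lymphomas lie below them.

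Some genes outside the set gave like orders. Chil3, a chitinase-like protein of neutrophils and macrophages, had levels of 7.35, 7.89 and 4.19 for the wild-type and 3.87, 7.84 and 3.43 for the Dnmt3b-deficient tumors. Cybb, the catalytic subunit of the phagocyte NADPH oxidase, had levels of 7.71, 8.73 and 4.77 for the wild-type and 4.62, 7.17 and 4.06 for the Dnmt3b-deficient tumors. Both were high in the same 3 lymphomas. Averaged over 30 further macrophage genes, the levels were 4.53, 4.86 and 4.17 for the wild-type and 4.14, 4.30 and 4.28 for the Dnmt3b-deficient tumors. In that list Dnmt3b-deficient lymphoma 2 was close to Dnmt3b-deficient lymphoma 3 and within the normal range of 4.25 to 4.33. Averaged over 22 further neutrophil genes, the levels were 4.90, 5.04 and 4.24 for the wild-type and 4.31, 5.05 and 4.23 for the Dnmt3b-deficient tumors. No gene of that list was called in any comparison, beside 19.9%, 20.2% and 19.6% of all probe sets in wild-type tumors, Dnmt3b-deficient tumors and pre-tumor samples against normal, where 2, 0 and 1 of the 22 had an unadjusted p under 0.05. The 14 growth factors and chemoattractants of myeloid cells showed 0 calls in wild-type and pre-tumor samples against normal, and 1, the Csf1r ligand Il34, fell by 0.82 in Dnmt3b-deficient lymphomas, beside the 10.5% of all probe sets that fell there. At an unadjusted p under 0.05 there were 3 of the 14 in each of these 3 comparisons. The percentages given here are for adjusted p. The shares of all probe sets at an unadjusted p are not given and can only be equal or larger. The unadjusted counts of both lists are therefore not read as an excess.

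Lymphocyte and other markers were read beside these orders. B cell markers averaged 4.05, 4.03 and 4.42 for the wild-type and 4.27, 4.23 and 4.33 for the Dnmt3b-deficient tumors, and erythroid markers 4.18, 4.49 and 4.30 and 4.12, 4.25 and 4.26. The erythroid list did not follow the order of the neutrophil genes. Nor did natural killer cell markers, at 4.42, 4.27 and 4.69 for the wild-type and 4.08, 4.64 and 4.36 for the Dnmt3b-deficient tumors. The natural killer mean was highest in wild-type lymphoma 3, beside 4.55 to 4.76 in normal thymocytes. B cell markers were lowest in wild-type lymphomas 1 and 2, and Dnmt3b-deficient lymphoma 2 (4.23) was close to Dnmt3b-deficient lymphoma 1 (4.27). Dendritic cell markers averaged 5.61, 5.41 and 4.97 for the wild-type and 4.87, 5.01 and 4.80 for the Dnmt3b-deficient tumors. They were highest in wild-type lymphomas 1 and 2, and Dnmt3b-deficient lymphoma 2 (5.01) was close to wild-type lymphoma 3 (4.97). Cd8a, a T cell co-receptor chain, was lowest in wild-type lymphoma 3, at 6.48, beside 8.51 to 10.37 in the other 5 lymphomas. The recombinase gene Rag1 was low in wild-type lymphoma 3 (3.58) and in Dnmt3b-deficient lymphoma 1 (3.95), and lay between 5.99 and 6.18 in the other 4. The part of these differences in the marker levels was not tested.

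Between the lymphoma genotypes, none of the 37 markers was called by limma, beside 0.00691% of all probe sets (2 of 28939). At an unadjusted p under 0.05 there were 5 of 37 markers, beside 6.3% of all probe sets, and all 5 were lower in Dnmt3b-deficient lymphomas. These were Itgam, described above, Ms4a6c (difference -2.00, SE 0.65, adjusted p = 0.707), Mpeg1 (-1.60, SE 0.59, adjusted p = 0.757), Cfb (-2.27, SE 0.96, adjusted p = 0.789) and Elane (-0.61, SE 0.22, adjusted p = 0.750). The groups did not overlap for 4 of them, Mpeg1 being the exception, beside 3.34% of all probe sets lower without overlap. The difference was below 0 for 30 markers, above 0 for 4 and 0 for the 3 at the floor. Its median was -0.80 for neutrophil genes and -0.25 for macrophage and monocyte genes. All probe sets tested had a median of 0, and those above the floor 0.02. The macrophage medians here and below include the 3 genes at the floor. The neutrophil median was -0.49 without wild-type lymphoma 1, -0.45 without wild-type lymphoma 2 and -1.26 without wild-type lymphoma 3. The macrophage median was -0.15 without wild-type lymphoma 2.

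Intervals for the most variable markers were too wide to place their difference between genotypes. For Lyz2 the difference was -2.73, with a 95% interval from -5.67 to 0.21 (adjusted p = 0.808). For Lcn2 it was -1.15, from -4.50 to 2.21 (adjusted p = 1). For S100a8 it was -1.32, from -4.22 to 1.58 (adjusted p = 0.978), and for Ngp -1.34, from -4.06 to 1.38 (adjusted p = 0.961). These intervals hold both a difference of 0 and differences of more than 4-fold.

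**Figure D5:**
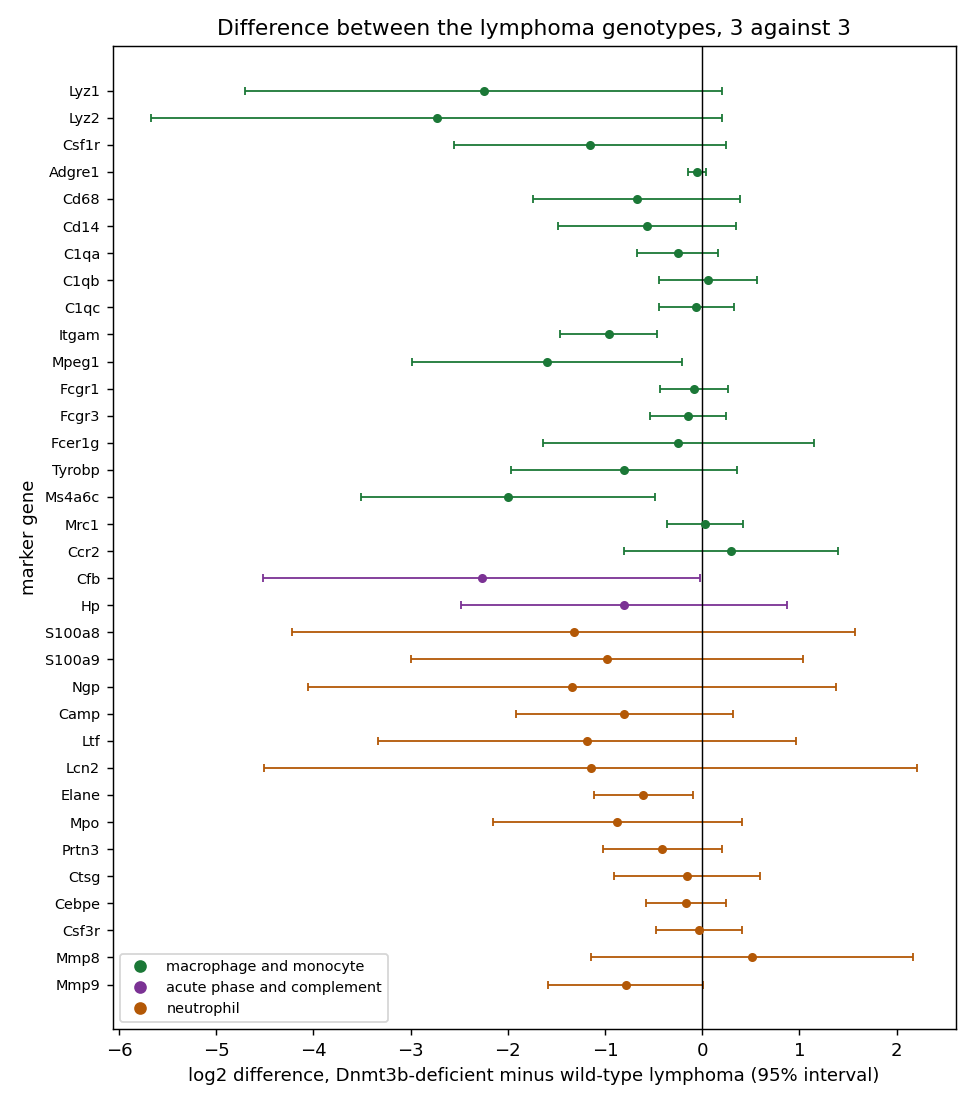
Difference in log2 level, Dnmt3b-deficient minus wild-type lymphomas (horizontal axis), with its 95% interval, for the 34 markers not at the floor on every array (vertical axis, coloured by list). The intervals of the C1q genes are narrow and hold 0, whereas those of Lyz2, Lcn2, S100a8 and Ngp run over several log2 units.

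Wild-type lymphomas against normal thymocytes gave 4 called markers of 37, beside 19.9% of all probe sets: Itgam rose, beside 9.58%, and the 3 C1q genes fell, beside 10.3%. The median difference was 0.35 for neutrophil genes and 0.24 for macrophage and monocyte genes. It was 0 for all probe sets tested and -0.05 for those above the floor. Leaving out wild-type lymphoma 1, 2 or 3 gave neutrophil medians of 0.11, 0.079 and 0.81 and macrophage medians of 0.012, 0 and 0.54. The count of calls also turned on 1 tumor. Without wild-type lymphoma 3, 10 markers were called, of which 8 rose (beside 8.71% of all probe sets) and 2 fell (beside 9.32%). Those that rose were Camp, Cfb, Ctsg, Itgam, Lyz1, Mpo, Ms4a6c and Prtn3, with differences of 3.31 for Lyz1 (adjusted p = 0.0115) and 1.38 for Mpo (adjusted p = 0.0282). With all samples, Lyz1 differed by 2.03 from normal and was not called. Ngp, Ltf and Lcn2 differed from normal in one direction with all samples and in the other without wild-type lymphoma 1 or 2, and none of the 3 was called.

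Dnmt3b-deficient lymphomas against normal thymocytes gave 3 called markers, the C1q genes, all of which fell, beside 10.5% of all probe sets. No marker rose, beside 9.7%. The median difference was -0.31 for neutrophil genes and -0.22 for macrophage and monocyte genes. It was 0 for all probe sets tested and -0.02 for those above the floor. The neutrophil median was -0.075, -0.47 and -0.12 without Dnmt3b-deficient lymphoma 1, 2 or 3, and the macrophage median was -0.064 without Dnmt3b-deficient lymphoma 1 and 0 without normal sample 2. There were 9 markers whose Dnmt3b-deficient lymphomas all lay below the normal samples, of 37, beside 17.2% of all probe sets. Csf1r, Cd68, Tyrobp and Cfb were among them.

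Pre-tumor against normal thymocytes also gave the 3 C1q genes as called lower, beside 9.88% of all probe sets. Here 24 of the 37 markers lay below every normal sample in both pre-tumor samples, beside 27.3% of all probe sets, and 13 of the 14 neutrophil genes were among them. Ms4a6c alone lay above, beside 17.4%. The median difference was -0.63 for neutrophil genes and -0.21 for macrophage and monocyte genes. It was -0.02 for all probe sets tested and -0.09 for those above the floor. The macrophage median was -0.34 without normal sample 1, -0.044 without normal sample 2 and -0.11 without pre-tumor sample 1. Lyz2 differed by -2.87 (SE 1.41, adjusted p = 0.218), Lcn2 by -2.67 (adjusted p = 0.323) and Ngp by -2.20 (adjusted p = 0.313). The spread in this fit is shared with the lymphomas. With only these 2 groups in the fit, 9 markers fell, beside 4.84% of all probe sets: Lyz2 (SE 0.21, adjusted p = 0.0258), Csf1r, C1qc, Fcer1g, S100a8, Ngp, Camp, Lcn2 and Mpo. In that smaller fit C1qa (adjusted p = 0.0685) and C1qb (adjusted p = 0.0756) were not called. The pre-tumor thymi were sorted for EGFP+ cells, and sorting cannot be told apart from genotype and MYC here.

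Of the other cell types, dendritic cell markers had 5 of 15 genes that fell in pre-tumor thymocytes, 4 in Dnmt3b-deficient lymphomas and 2 in wild-type lymphomas, beside 9.88%, 10.5% and 10.3% of all probe sets, so that the count of 2 is near the background. The class II genes Cd74 and H2-Ab1, used by dendritic cells, macrophages and B cells to present antigen, fell by 1.15 and 1.63 in pre-tumor thymocytes and by 2.12 and 1.71 in Dnmt3b-deficient lymphomas. Of the 10 B cell markers, 2 rose in pre-tumor thymocytes, beside 9.69% of all probe sets: Igll1, of the surrogate light chain, by 1.39, and the adaptor Blnk by 0.84. Among 13 myeloid regulators and receptors, Irf8, a factor for monocytes and dendritic cells, fell by 0.71, 0.77 and 0.56 in wild-type lymphomas, Dnmt3b-deficient lymphomas and pre-tumor thymocytes. Id2, an inhibitor of lineage factors, fell by 1.88, 2.20 and 2.00. Of the 5 NADPH oxidase genes, the subunit genes Cyba (by 1.07, 0.92 and 1.07) and Rac2 (by 0.68, 0.70 and 0.61) fell in the same groups, and thymocytes express both. PU.1 itself, Spi1, lay between 3.37 and 4.30 on all arrays.

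Against pre-tumor thymocytes, no marker was called in Dnmt3b-deficient lymphomas, beside 0.0691% of all probe sets, or in wild-type lymphomas, beside 0.107%. At an unadjusted p under 0.05 there were 2 markers in the first comparison and 8 in the second, beside 9.43% and 7.77% of all probe sets. In wild-type lymphomas 19 of the 37 markers lay above both pre-tumor samples without overlap, beside 11.3% of all probe sets, with differences of 3.77 for Lyz2 (adjusted p = 0.550) and 2.81 for Lyz1 (adjusted p = 0.629). In Dnmt3b-deficient lymphomas 12 did so, beside 13.1%, and Ms4a6c lay lower without overlap, beside 7.83% (difference -1.75, adjusted p = 0.511).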

How the data were processed

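RNA of 11 mouse thymus samples was measured on Affymetrix arrays, from 300 ng of total RNA per the labels' protocols. Values were deposited as log2 levels. Per the submitters' processing notes the authors used Partek and RMA, with no version or order given. They were used as deposited. Of 35512 probe sets, 6573 probable controls were left out. A mean per group was fitted over all 4 groups with limma 3.58.1 (R 4.3.3; lmFit and eBayes), and p-values of 6 comparisons were adjusted by Benjamini-Hochberg over 28939 probe sets at 0.05. The code was tested on simulated data. For each gene the single-symbol probe set with the highest mean was taken. Levels per sample are given for called markers, for the 8 with the widest lymphoma range, and for further genes chosen after their values were seen. The members and lists were chosen with earlier results of these data known. Labels call replicates biological, without naming animals. The small number of arrays limits precision. Alternatives covered normalization, variance moderation, filters, samples fitted, a replicate block and leaving out samples. Promoters came from RefSeq.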

Additional observations from a re-analysis of the deposited data

How the results depend on the processing

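Of the single-gene and summary results outside the settings that leave out 1 sample, none changed direction. For wild-type lymphomas against normal thymocytes, 2 markers were called (C1qa and Itgam) with only the 2 groups compared, and 2 with a fold change of at least 2. Leaving out samples gave 3 to 10. For Dnmt3b-deficient lymphomas against normal, 1 was called with a fold change of at least 2, and 2 to 3 when leaving out samples. For pre-tumor against normal, 9 were called with only the 2 groups, and 2 to 3 when leaving out samples. For wild-type lymphomas against pre-tumor thymocytes, leaving out samples gave 0 to 1. The macrophage median against normal was -0.72 for Dnmt3b-deficient lymphomas without dim probe sets. For pre-tumor thymocytes it was -0.43 without probe sets at the floor, -0.70 without dim ones, and -0.34 to -0.044 leaving out samples. The first 3 of these values follow from fewer genes being kept, since markers at or near the floor drop out.

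Leaving out samples turned the direction of some uncalled markers. Between genotypes the values ran from -0.92 to 0.25 for Fcer1g and from -0.39 to 0.99 for Mmp8. For wild-type lymphomas against normal they ran from -0.26 to 1.09 for Csf1r, -0.090 to 1.08 for Fcer1g, -0.51 to 1.43 for Ngp, -0.25 to 1.11 for Ltf and -0.38 to 1.97 for Lcn2. The count of markers that ranged by at least 2 over the lymphomas was 11 to 15. With only the 2 groups in the fit, Cfb fell by 0.47 in Dnmt3b-deficient lymphomas against normal (adjusted p = 0.0348).

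With the replicate number as a block, the neutrophil median of pre-tumor against normal was -0.90, and 4, 3 and 3 markers were called against normal in wild-type lymphomas, Dnmt3b-deficient lymphomas and pre-tumor thymocytes, as without it. The deviations of same-numbered samples from their group means correlated between -0.331 and 0.322 in 15 pairs, with 3 above 0.1. With 2 or 3 samples a group, this check cannot decide whether the numbers pair the samples. A level below the floor of 3.32 cannot be read, and differences against a group at the floor are lower limits.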
